A study of Drosophila melanogaster with 2 samples.

Results

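Cytoplasmic ribosomal protein genes encode the protein parts of the ribosomes that work in the cytosol. They were taken from the Ensembl annotation as all protein-coding genes whose symbol starts with RpL, RpS or RpLP and a digit, together with sta, which encodes the small subunit protein SA. The rule found 93 genes of the 13945 protein-coding genes on the 6 chromosome arms, and it used no measured value. Of these, 50 belong to the large subunit, 39 to the small subunit and 4 to the stalk, by symbol. Copies were set apart by a symbol that ends in a or b, in -like, or in -1 or -2, which gave 23 copies and 70 genes with a single name.

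The study mapped the protein of CG10979 by chromatin immunoprecipitation and sequencing (ChIP-seq) in whole Drosophila melanogaster embryos of both sexes, pooled, at 0 to 14 h of age. The embryos came from 1 transgenic line that stably expresses CG10979 with a green fluorescent protein (eGFP) at its C terminus, and an antibody against the tag pulled down chromatin that had been sonicated to 200 to 800 bp. There were 2 biological replicates, numbered 2 and 3, and 1 group, with no other genotype or treatment to compare with. Whole embryos mix all cell types, so that a peak in a few cells and a weak peak in all cells cannot be told apart.

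The files hold peaks positioned on build dm6. Relaxed lists of 30000 peaks exist for replicate 2, for replicate 3 and for both pooled. A shorter list, called the IDR list, holds the pooled peaks that passed the authors' threshold on the irreproducible discovery rate, which measures whether peaks keep their rank between replicates. A gene is said to have a peak where the summit of an IDR peak, its highest point, lay within 500 bp of any annotated start of the gene. The signal value is the authors' own score for a peak. It ranks peaks within a list and has no unit, and its level in the pooled and IDR lists is not on the same scale as in a single replicate. The lists hold no read counts, so depth is unknown, and the intervals given on shares cover the number of genes only.

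Ribosomal proteins are needed in nearly equal amounts in every growing cell, and their genes are among the most highly transcribed of the embryo. In flies many of them start transcription at a TCT initiator, a pyrimidine-rich start that works with the TBP-related factor TRF2 in place of the usual TATA-binding protein. The DNA-binding factors M1BP and DREF, which acts at the DNA replication-related element (DRE), are also known at ribosomal protein promoters.

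Starts are shown for the 3 members with the highest IDR signal value on chromosome 3 in the large and in the small subunit, for the strongest stalk gene, and for 2 copy pairs with unlike peaks. Each line runs 5′ to 3′ on the gene's strand, with 10 bases before the start and 20 from it, and capitals mark CTTTC or CTTTT where its C lay within 5 bases of the start. For a gene with a peak the start nearest to the summit is shown, and for RpS5b and RpS19b, which have none, the 5′ end.
RpL34b: aacagggttgccacCTTTCtttctagtttc
RpL32: ccaccagCTTTTtcttttcgcttctggttt
RpL14: aaaaaagttCTTTCcttctctttctttccg
RpLP0: ccgccaacttcactCTTTCcgttctgtgag
RpS28a: actcacagcttcaaattcaaatcttttatt
RpS27: agcattatttagtgcattctcgggcaagtt
RpS20: cctgtaaaacttctcttcgttttcaaccag
RpS5a: tgccgtaacatgttCTTTTtcaggcgtttg
RpS5b: cttttaccgtttCTTTTtcatcctctttct
RpS19a: ttcacgcgccttgttCTTTTttccggttga
RpS19b: ccaatcgtccattttgactaaagtcagcaa
In the RefSeq genome of the same assembly these segments lie at chr3R:9401207-9401236 (minus strand) for RpL34b, chr3R:30046142-30046171 (minus) for RpL32, chr3L:8600996-8601025 (plus) for RpL14 and chr3L:22076082-22076111 (plus) for RpLP0. The small subunit segments lie at chr3R:30022629-30022658 (minus) for RpS28a, chr3R:25247495-25247524 (minus) for RpS27, chr3R:20822171-20822200 (plus) for RpS20 and chrX:17148245-17148274 (minus) for RpS5a. The others are chr3R:14901544-14901573 (minus) for RpS5b, chrX:16637884-16637913 (plus) for RpS19a and chr3R:23933511-23933540 (minus) for RpS19b. Of the genes shown, RpL34b, RpL32, RpL14, RpLP0, RpS5a, RpS5b and RpS19a carry the initiator in these letters, and RpS28a, RpS27, RpS20 and RpS19b do not. High signal values did not go with it throughout: RpL34a, also among the strongest members, has 1 annotated start and had no match there. RpL7 had no match at its 5′ end, but its summit lay nearer to another of its starts.

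Sequence around the summits of these peaks, with 50 bp to either side, differed from gene to gene. It is shown for RpS28a, RpL34b, RpL32 and RpS20 as strong members whose summit lay between genes, and for RpS28b as the copy of RpS28a. RpS25 and RpL6 were picked after their values were seen, as members with a DRE and an M1BP core at the summit. Capitals mark a preset motif on either strand, and in RpS28a the letters GGCGCC, which were added after the sequence was seen.
RpS28a: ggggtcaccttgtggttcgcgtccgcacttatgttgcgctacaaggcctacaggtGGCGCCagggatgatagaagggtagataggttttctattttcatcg
RpS28b: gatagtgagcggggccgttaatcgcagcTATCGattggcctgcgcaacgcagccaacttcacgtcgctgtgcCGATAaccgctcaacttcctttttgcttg
RpL34b: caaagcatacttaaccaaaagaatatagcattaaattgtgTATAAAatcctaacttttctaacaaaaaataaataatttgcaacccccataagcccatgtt
RpL32: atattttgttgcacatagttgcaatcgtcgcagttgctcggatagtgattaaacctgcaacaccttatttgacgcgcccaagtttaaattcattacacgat
RpS20: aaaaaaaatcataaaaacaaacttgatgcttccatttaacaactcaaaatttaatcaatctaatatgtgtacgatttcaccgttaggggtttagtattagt
RpS25: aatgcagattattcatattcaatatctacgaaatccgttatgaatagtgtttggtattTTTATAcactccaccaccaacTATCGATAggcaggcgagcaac
RpL6: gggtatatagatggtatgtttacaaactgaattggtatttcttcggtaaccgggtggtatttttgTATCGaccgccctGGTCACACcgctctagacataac
These windows lie at chr3R:30022676-30022776 (minus) for RpS28a, chrX:9554542-9554642 (plus) for RpS28b, chr3R:9401316-9401416 (minus) for RpL34b and chr3R:30046255-30046355 (minus) for RpL32. The others are chr3R:20821977-20822077 (plus) for RpS20, chr3R:11216325-11216425 (minus) for RpS25 and chr3R:31596203-31596303 (minus) for RpL6. The windows of RpL34b and RpS20 were 27.7% and 26.7% G or C, and those of RpS28a and RpS28b 52.5% and 55.4%. RpL32 and RpS20 held none of the preset motifs there.

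Most cytoplasmic ribosomal protein genes carried a CG10979-eGFP peak at a start. By the 500 bp window 74 of the 93 genes had an IDR peak (79.6%, 95% Wilson interval 70.3 to 86.5), against 3520 of all 13945 protein-coding genes (25.2%). Among the genes with a single name the count was 61 of 70 (87.1%, 77.3 to 93.1), and among copies and -like genes 13 of 23 (56.5%, 36.8 to 74.4). By subunit it was 39 of 50 large subunit genes, 32 of 39 small subunit genes and 3 of 4 stalk genes. Without copies, 34 of 41 large subunit genes and 24 of 26 small subunit genes had a peak. A window of 200 bp gave 72 members (18.3% of all genes) and one of 1000 bp gave 75 (29.4%), and with the 5′ end as the only start there were 74 (22.7%). Peak intervals that overlapped a start were found at 72 members (16.5%). Among IDR peaks above the list's median signal value of 373 the count was 43 (13.1%).

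The replicates gave almost the same members. When each replicate was limited to its strongest peaks, as many as the IDR list holds, 75 genes had a summit at a start in replicate 2 and 74 in replicate 3, or 80.1% ± 0.760 (SD, n = 2). Over all protein-coding genes the share was 24.4% from replicate 2 and 26.3% from replicate 3. A peak in both of these lists was found at 71 genes, all of which had an IDR peak. RpS6 fell short in replicate 2, and RpL12 and RpS30 in replicate 3. Conversely RpS3 and RpL38 were reached in replicate 2 alone, and RpL36A in replicate 3 alone, without an IDR peak.

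**Figure D1:**
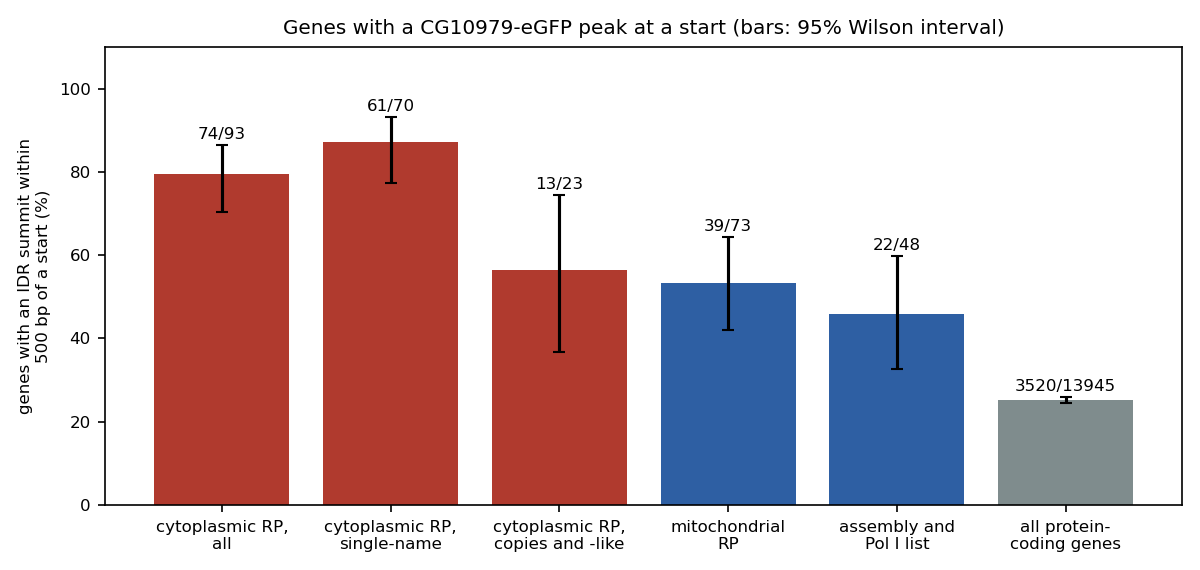
Share of genes (%) with an IDR summit within 500 bp of a start, by gene class, with the count above each bar and the 95% Wilson interval as error bar. The bar for all cytoplasmic ribosomal protein (RP) genes stands at 79.6% and that for copies and -like genes at 56.5%, against 25.2% of all protein-coding genes.

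Related gene classes had shares below the members' and above that of all genes at the 500 bp window. Of mitochondrial ribosomal protein genes, 39 of 73 had a peak (53.4%). This fell to 18 (24.7%, against 19.0% of all genes) where the nearest start had to belong to the gene, and to 20 (27.4%, against 16.5%) where the peak interval had to overlap a start, while 70 and 72 members had a peak under these settings. Of a list of 54 genes for ribosome assembly, the nucleolus and RNA polymerase I, 48 were found under their symbol and 22 of these had a peak (45.8%), or 11 (22.9%) where the nearest start had to belong to the gene. The strongest were Ns2 (2593), which encodes a GTPase of the nucleostemin family, eIF6 (1260), an anti-association factor of the large subunit, Rrp1 (1244) and NHP2 (929), a protein of the box H/ACA particles that modify ribosomal RNA. Rrp1 stands in that list by its symbol, while in flies it is known as a DNA repair endonuclease. The difference in share between the members and these lists was not tested.

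The members' peaks were of middling height for peaks at starts. Their signal value had a median of 431, with quartiles of 294 and 667 and a range of 193 to 3719, over the 74 genes. Other protein-coding genes with a peak had a median of 388 with quartiles of 250.4 and 759, and a highest value of 9874. The members' middle range was thus the narrower and lay inside that of the other genes. In the strongest peaks of single replicates the order of the medians was not the same: the members had 212 and the other genes 219.96 in replicate 2, while the members had 219.7 and the other genes 175.9 in replicate 3. Large subunit genes had a median of 486 (n = 39) and small subunit genes of 363 (n = 32), and their ranges overlapped. The 39 mitochondrial ribosomal protein genes with a peak had a median of 318.

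RpS28a, whose protein sits on the small subunit near the exit of the mRNA, stood far above the other members. The gene (FBgn0039739) lies at chr3R:30022345-30022648 on the minus strand, and its peak at chr3R:30021936-30023098 had a signal value of 3719, rank 70 of the IDR list. It reached 1496 in replicate 2 against 2202 in replicate 3. The next highest value of a member in either replicate was 686, at RpL34b in replicate 2. The summit lay 78 bp upstream of the start of RpS28a and 116 bp from that of Axn, a Wnt pathway scaffold gene that faces it on the other strand, so that the peak cannot be assigned to one of the genes.

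The strong members described next had IDR values of 913 to 1206. Among large subunit genes RpL34b had 686 in replicate 2 and 519 in replicate 3, with an IDR value of 1206. RpL32, known as rp49 and widely used as a reference transcript in flies, had 665 in replicate 2 and 487 in replicate 3 (1141). Both were higher in replicate 2.

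RpL14 had 503 in replicate 2 and 567 in replicate 3, with an IDR value of 1055. RpL7 had 526 in replicate 2 and 504 in replicate 3 (1034). RpL23A, which lies at the exit of the peptide tunnel, had 555 in replicate 2 and 468 in replicate 3 (1030.3). RpL34a had 444 in replicate 2 and 473 in replicate 3 (913). By signal value RpL14 and RpL34a were thus the higher ones in replicate 3 among these genes. By rank within each list RpL7 (1203 in replicate 2, 967 in replicate 3) and RpL23A (1118 and 1084) stood higher in replicate 3 too.

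Of small subunit genes, RpS27, which encodes a zinc-binding protein, had 552 in replicate 2 and 507 in replicate 3, with an IDR value of 1056. RpS20 had 539 in replicate 2 and 492 in replicate 3 (1039). Both signal values were slightly higher in replicate 2, as at most matched IDR peaks (median log2 ratio of replicate 2 to replicate 3 0.28).

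The stalk binds the translation factors that drive the ribosome and consists of RpLP0 with dimers of RpLP1 and RpLP2. RpLP0 had a signal value of 417 in replicate 2 and 475 in replicate 3 (IDR value 895). RpLP1 had 251 in replicate 2 and 278 in replicate 3 (532), and RpLP2 had 220.3 in replicate 2 and 322 in replicate 3 (542). All 3 stalk genes were higher in replicate 3. The small subunit gene sta had 176 in replicate 2 and 183 in replicate 3 (356).

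The other large subunit members fell in a continuous order. RpL41, RpL19, RpL30 and RpL13A had IDR values between 791 and 878. RpL13, RpL24, RpL11, RpL22, RpL28, RpL37A, RpL3, RpL23, RpL27, RpL17, RpL35A, RpL4, RpL31 and RpL8 lay between 420.2 and 688. RpL36, RpL9, RpL27A, RpL26, RpL18, RpL37-1, RpL39, RpL6, RpL35, RpL10Ab and RpL29 lay between 222 and 382. RpL5 and RpL11 carry the 5S ribosomal RNA into the large subunit, and of them RpL11 (631) had a peak.

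Of the small subunit, RpS25 (899), RpS10b (727), RpS4 (639) and RpS16 (557) came next after RpS20. RpS3A, RpS5a, RpS21, RpS18, RpS27A, RpS28b, RpS15Aa, RpS12, RpS14a, RpS7 and RpS2 lay between 308 and 471. RpS29, RpS19a, RpS26, RpS15, RpS23, RpS14b, RpS9, RpS13 and RpS24 lay between 235 and 298. RpS27A, whose protein is made as a fusion with ubiquitin, had 429.7, whereas RpL40, the other such fusion, had no IDR peak.

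**Figure D2:**
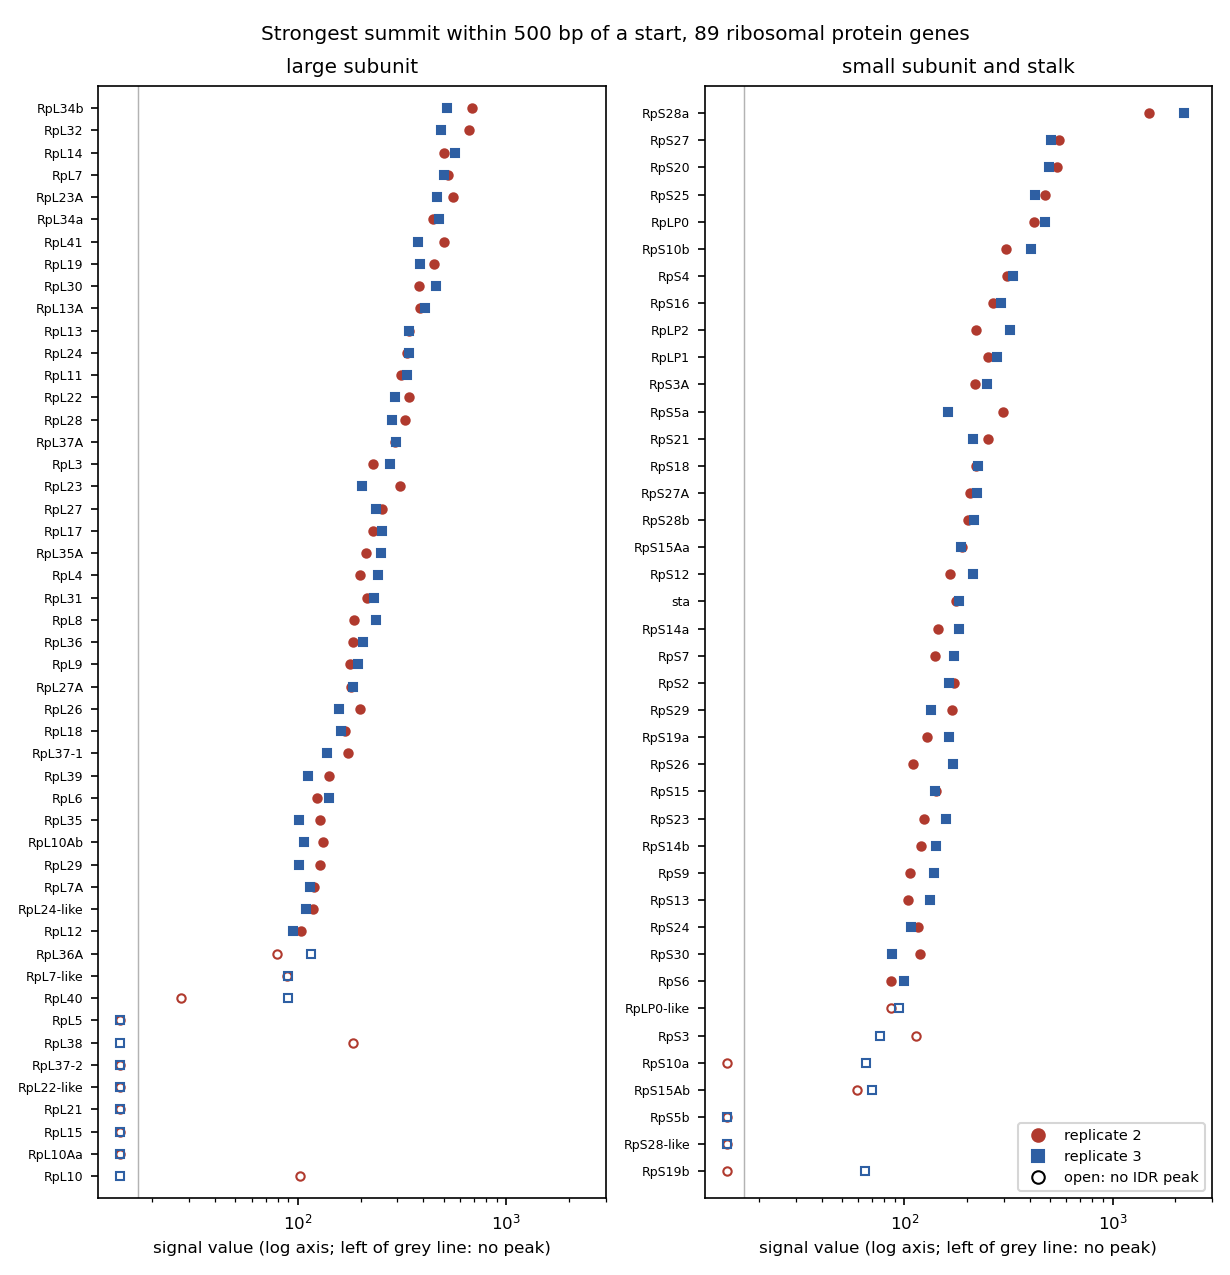
Signal value (log axis, no unit) of the strongest relaxed summit within 500 bp of a start in replicate 2 (circles) and replicate 3 (squares) for 89 of the 93 genes, ordered by pooled signal value in each panel. Filled symbols mark genes with an IDR peak, and symbols left of the grey line mark no peak in that replicate. RpS28a stands apart at 1496 and 2202, and at most other genes the replicates lie close together.

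The lowest members with a peak were RpS6 (193), the ribosomal target of S6 kinase, RpL12 (202), RpL24-like (214), RpS30 (215) and RpL7A (218). RpS6 had 86.0 in replicate 2 and 99.8 in replicate 3. The lowest value in the IDR list was 189.9. RpL36A and RpLP0-like lay just under it in the pooled list at 184 and 181. A relaxed pooled summit at a start was found at 82 of the 93 genes (88.2%), against 54.1% of all protein-coding genes. At this looser threshold mitochondrial ribosomal protein genes (64 of 73, 87.7%) and the assembly list (42 of 48, 87.5%) had shares like that of the members. Of the 82, 74 had an IDR peak, against 46.7% of all genes with a relaxed pooled summit.

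Genes with a relaxed pooled summit alone included RpL36A, RpLP0-like, RpS3, RpS10a, RpL7-like, RpL40 and RpS15Ab. RpS3, which lines the entry of the mRNA, had 114 in replicate 2 and 76.2 in replicate 3 (pooled value 178). RpL36A had 79.3 in replicate 2 and 116 in replicate 3 (184). For both genes the replicates thus stood on either side of the lowest signal value taken for the single-replicate lists. RpL40 had 27.5 in replicate 2 and 89.5 in replicate 3 (113), and the pooled values of RpS10a and RpL7-like were 163 and 143.

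The other 11 genes without an IDR peak had no pooled summit either. They were RpL5, RpL10, RpL15, RpL21, RpL38, RpL10Aa, RpL22-like, RpL37-2, RpS5b, RpS19b and RpS28-like. RpL5, RpL10, RpL15, RpL21 and RpL38 lie close to the centromeres, beyond the last pooled summit of their arm. The pooled list ended at 22169263 on chromosome 2L and at 22949861 on 3L, and began at 4595330 on 2R. Over both ends of all 6 arms, 98 protein-coding genes lay outside the span of pooled summits, 39 of them on 3L, 25 on 2R and 20 on 2L, and 0 had an IDR peak.

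Within the spans 74 of 88 members had a peak (84.1%), against 25.4% of the 13847 protein-coding genes there. Of the single-name genes within them it was 61 of 65 (93.8%), and RpL36A, RpL40 and RpS3 were among those without. Replicate 2 alone had a summit at RpL38, 7 bp upstream of its start with a signal value of 184, and at RpL10, 26 bp downstream with 102, while replicate 3 and the pool had none at either gene. RpL10 is among the last proteins to join the large subunit. How reads in the repeat-rich sequence near centromeres were treated is not given in the sources used here, and its part in these absences was not tested.

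**Figure D3:**
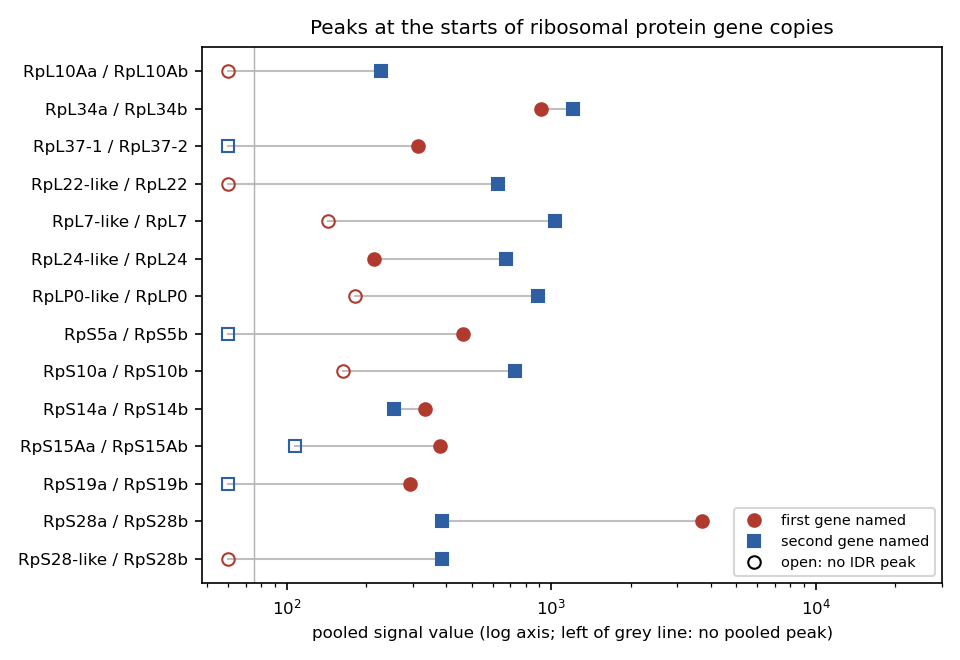
Pooled signal value (log axis, no unit) of the strongest summit within 500 bp of a start for the genes of each copy pair, joined by a line. Filled symbols have an IDR peak, and symbols left of the grey line have no pooled summit. In 10 of the 14 pairs 1 gene was filled and the other open, as with RpS15Aa at 379 and RpS15Ab at 107.

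Copies of a ribosomal protein gene differed in whether they had a peak. In 10 of 14 pairs 1 gene had an IDR peak, and in 4 pairs both had. RpS28b stands in a pair with RpS28a and in another with RpS28-like, so the pairs are not all separate. Pairs of other genes were not counted beside them. RpL22-like, RpS5b, RpS10a and RpS19b are known in flies for expression in the germ line, and none of them had an IDR peak. Their counterparts did, with IDR values of 628 at RpL22, 462 at RpS5a, 727 at RpS10b and 293 at RpS19a. Of all protein-coding genes 25.2% had an IDR peak. The other copies, among them RpS28a with the highest value of any member (3719), were not sorted by tissue of expression. Germ line copies as a class were therefore not described, and these 4 genes do not stand for them. In the replicates RpS5a had 298 in replicate 2 and 163 in replicate 3, and RpS5b had no relaxed summit in either.

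RpS19a had 128 in replicate 2 and 163 in replicate 3, while RpS19b had none in replicate 2 and 64.8 in replicate 3, at -319 bp. RpS10b had 309 in replicate 2 and 405 in replicate 3, and RpS10a had none in replicate 2 and 65.2 in replicate 3. The peak at RpS10b was thus several times higher than that at RpS10a in replicate 3. RpL10Ab (228), RpL37-1 (313), RpL7 (1034) and RpLP0 (895) had a peak, and RpL10Aa, RpL37-2, RpL7-like and RpLP0-like did not. RpS28-like had no summit in any list.

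Both genes of a pair had a peak for RpL34a and RpL34b (913 and 1206), RpS28a and RpS28b (3719 and 387), RpL24-like and RpL24 (214 and 676), and RpS14a and RpS14b (333 and 254). RpS28b had 202 in replicate 2 and 215 in replicate 3, below RpS28a in both. RpS14a had 145 in replicate 2 and 182 in replicate 3, and RpS14b had 119.9 in replicate 2 and 141 in replicate 3. These neighbours on the X chromosome have coding sequences 97.8% identical, and RpS15Aa and RpS15Ab are 98.2% identical. How reads that match both copies were assigned is not given in the sources used here, so values at these 2 pairs are uncertain. In the other pairs identity ran from 45.9% to 78.2%. Pairs with a -like gene were the lowest, from 45.9% (RpLP0-like) to 55.8% (RpL22-like), and the rest began at 66.0%. The -like genes count as copies by symbol alone, and whether they encode ribosomal proteins was not examined. Of them RpL24-like alone had an IDR peak.

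The members' summits lay closer to the start than those of other genes. The strongest IDR summit was upstream of the nearest own start in the median (-32 bp, quartiles -77.8 and 3.75 bp), against -138 bp (quartiles -218 and -57 bp) for 3446 other protein-coding genes with a peak. Within 100 bp of the start lay 57 of 74 members' summits (77.0%) and 30.1% of the others. Upstream of the start lay 51 (68.9%) of the members' summits and 85.0% of the others. Mitochondrial ribosomal protein genes had a median of -139 bp, with 25.6% within 100 bp.

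**Figure D4:**
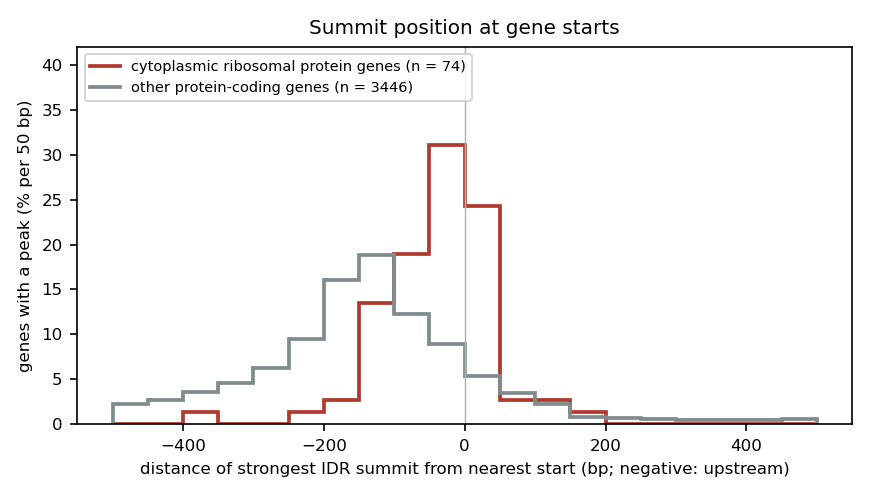
Distance (bp, negative upstream) of the strongest IDR summit from the nearest own start, as the percentage of genes with a peak in each 50 bp. The members (n = 74) are highest in the 50 bp upstream of the start, at 31.1%, and the other genes (n = 3446) between 150 and 100 bp upstream, at 18.9%.

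Several genes show the range. The summit stood at the start itself at RpL31 and RpL27A, and 2 bp downstream at RpS4. It lay at -144 bp at RpL32 and at -154 bp at RpS20, both between genes. On the other side it lay 119 bp downstream at RpS15, in an exon, and 72 bp downstream at RpL3, in an intron. RpL10Ab, at -353 bp, was the only member over 250 bp away, and the start of CG5946 was nearer to that summit, at 223 bp.

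The annotation of starts bears on these distances. Of the 48 members with 1 annotated start, 34 had a peak (70.8%, against 19.98% of all such genes), at a median of -57 bp, against -138 bp for all. Of the 45 with 2 or more starts, 40 had a peak (88.9%, against 39.8%), at -21.5 bp, against -128 bp. When only the 5′ end of each gene counted, the members' median was -8.5 bp and 54.1% were upstream. The shorter distance of the members thus held in both classes, while the exact median moved with the choice of start.

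The members' summits lay in varied parts of the annotation. Of the 74, 37 fell between genes, 25 in an exon of the gene, 9 in an intron and 3 in another gene. At 4 genes the start of another gene was nearer (5.41%), against 26.3% of all protein-coding genes with a peak. They were RpL10Ab, RpL34b beside CG8132, RpL24-like beside CG5276, and RpL13 beside Dref, which encodes the DRE-binding factor. When only summits nearest to the gene's own start counted, 70 members had a peak, against 19.0% of all. Another protein-coding start lay within 500 bp of the summit at 35 of the 74 members (47.3%), which was not counted for all genes. The summit lay at -111 bp from the start of RpL34a and 118 bp from that of Trmt61. It lay at -64 bp from the start of RpL19 and 67 bp from that of CG3776. Such peaks cannot be assigned to 1 gene by distance.

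Many members share an upstream region with a gene on the other strand. A protein-coding start on the other strand within 1000 bp upstream was found for 56 of 93 members (60.2%), against 35.2% of all protein-coding genes. Of these members 48 had a peak (85.7%), against 42.7% of all genes so arranged. Without such a neighbour it was 26 of 37 (70.3%), against 15.8%. The share was therefore above that of all genes in both arrangements. Partners include eIF1, which encodes a factor of start codon choice, at RpL28, and bys, a gene for assembly of the small subunit, at RpS6.

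Base composition at the summits differed with their position. Sequence with 50 bp to either side of the members' summits had a median of 44.6% G or C (quartiles 36.9 and 49.5), against 30.7% (24.8 and 38.6) for other genes with a peak. Around summits within 50 bp of a start the medians were 45.5% for 41 members and 43.1% for 498 other genes. Around summits 51 to 100 bp away they were 46.0% and 33.7%, and beyond 100 bp 32.7% and 28.7%. The 5′ ends of all members and of all other genes, peak or not, had medians of 45.5% and 43.6%. The medians were thus close within 50 bp of a start and apart at 51 to 100 bp. The part of summit position in the higher G or C content was not tested.

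The replicates stood in another ratio at the members than elsewhere. The log2 ratio of replicate 2 to replicate 3 signal values at matched summits had a median of -0.04 over the 74 members (quartiles -0.21 and 0.20). Over 2360 other peaks at starts it was 0.25, and over all 7351 matched IDR peaks 0.28. The ratio was below 0 at 42 members (56.8%), against 27.0% of the other peaks at starts. Among peaks with 36.9% to 49.5% G or C, the members' middle range, it was -0.01 for 40 members and 0.04 for 538 other peaks. Among peaks with signal values of 294 to 667 it was -0.10 for 36 members and 0.24 for 812 others. These ranges were set after the data were seen, and the part of base composition or peak height in the ratio was not tested.

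**Figure D5:**
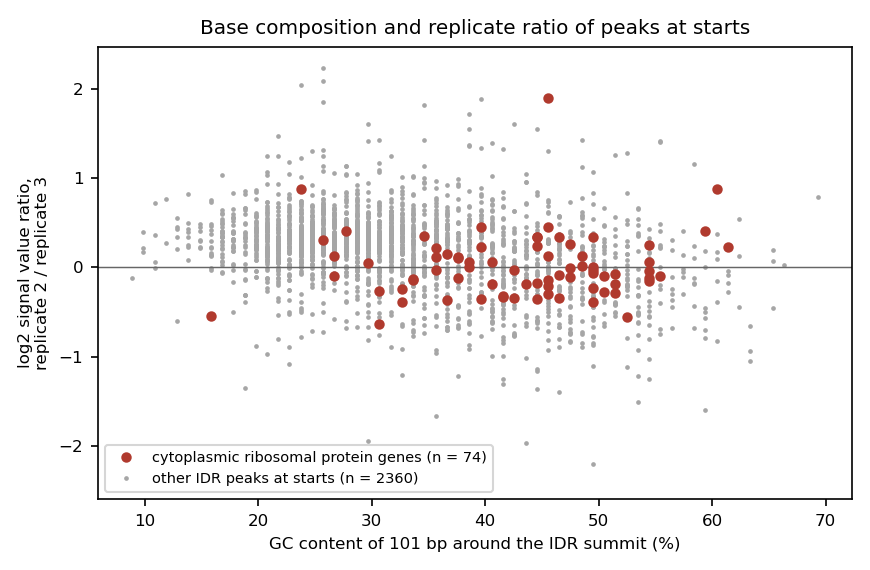
Log2 ratio of replicate 2 to replicate 3 signal values against the G or C content (%) of the sequence around the IDR summit, 50 bp to either side, for members (large points, n = 74) and other peaks at starts (small points, n = 2360). The other peaks lie mostly above 0 at low G or C content and around 0 at 36.9% to 49.5%, where their median was 0.04 and that of the members -0.01.

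Single genes departed from this in both directions. RpS5a had 298 in replicate 2 and 163 in replicate 3 (log2 ratio 0.87). RpS30 and RpL32 followed at 0.45 each. RpS2 had the highest ratio, 1.89, which rests on a weaker neighbouring summit: its strongest summits at the gene were 173 in replicate 2 and 164 in replicate 3, the second of them 125 bp downstream of a start. The lowest ratios were those of RpS26 (-0.63), with 109.7 in replicate 2 and 170.1 in replicate 3, RpS28a (-0.56), RpLP2 (-0.55), RpS10b (-0.39) and RpS9 (-0.39). Across the 81 members with a summit in both relaxed lists, the strongest values had a Spearman correlation of 0.935, which is across genes of the same 2 libraries and no measure of independent replicates.

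The promoters were searched for 8 preset motifs, in 250 bases before and 50 after the 5′ end, on both strands except for the TCT initiator. A match is a description of letters. The initiator (CTTTC or CTTTT with its C within 5 bases of the start) was at 31 of 93 members (33.3%), against 3.47% of all protein-coding genes. Counting any annotated start, a choice made after seeing the data, it was at 57 members (61.3%), against 5.13%. Members with it at the 5′ end had a peak in 26 of 31 cases (83.9%) and those without in 48 of 62 (77.4%). Among other genes the shares were 24.3% with it and 24.9% without. The members' interval with the initiator at the 5′ end, 67.4 to 92.9, covered the share without it. Peaks were called at any start, and at any start 49 of 74 members with a peak had the initiator (66.2%, 54.9 to 76.0). Of members without a peak it was 8 of 19 (42.1%, 23.1 to 63.7), and of all protein-coding genes with a peak 7.44%. The part of the number of annotated starts was not tested.

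The DRE (TATCGATA) was in 28 members' promoters (30.1%), against 9.36% of all. Of members with a peak 25 of 74 had it (33.8%, 24.0 to 45.1), and of those without 3 of 19 (15.8%, 5.52 to 37.6). These intervals overlapped. The M1BP core (GGTCACAC) was in 15 (16.1%), against 7.70%. The BEAF-32 core (CGATA), which is contained in the DRE, was in 68 (73.1%), against 47.4%. A TATA box (TATAAA) was in 45 members (48.4%, against 45.8%), but with only 100 bases before the 5′ end it was in 12 (12.9%, against 23.9%). The GAGA repeat (GAGAG) was in 16 (17.2%), against 29.7%. This share was below that of all genes also in the shorter window (8.60% against 18.0%). The E-box (CACGTG, 8.60% against 4.20%) and a variant CTCF core (AGATGGC, 7.53% against 3.72%) were rare. A low GAGA share was not particular to the members: mitochondrial ribosomal protein genes had 16.4%, and 8.22% in the shorter window. Those genes had the DRE at 20.5% and the BEAF-32 core at 58.9%, between the members and all genes, but the initiator at 4.11%. All protein-coding genes with an IDR peak had the DRE at 14.9%, the BEAF-32 core at 55.1% and GAGA at 28.9%.

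At the summits themselves matches were fewer. With 50 bp to either side, a DRE was found at 10 of 74 members (13.5%), against 3.23% of 2538 IDR peaks at protein-coding starts. These were RpL28, RpL36, RpL41, RpS10b, RpS12, RpS13, RpS14a, RpS24, RpS25, whose window is printed above, and RpS29. The M1BP core was at 5 (6.76%, against 1.73%), namely RpL6, RpL27A, RpL30, RpL37A and RpLP0. The BEAF-32 core, which includes the DRE matches, was at 29 (39.2%, against 19.5%). A TATA box was at 6 (8.11%), against 25.2%. GAGA was at 4 (5.41%, against 8.08%), the variant CTCF core at 3 (4.05%, against 2.01%), the E-box at RpL7 alone (1.35%, against 0.827%), and GGCGCC at RpS28a and RpS21 (2.70%, against 1.54%). The members' windows were richer in G and C than those of other peaks, as given above. They also lay closer to the start (median summit at -32 bp, against -138 bp for other genes), so that unlike parts of the promoter were compared. The part of base composition or position in these shares was not tested.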

How the data were processed

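Peaks of both replicates, of their pool and of the IDR list were read from the deposited narrowPeak lists on dm6. Replicate lists come from single alignments and the pooled list from both, against 1 control alignment, per the labels and the accompanying text. Caller and aligner are not given in the sources used. Each deposited signal value is the authors' score per peak. The deposited −log10 q value is capped (4.27 for every IDR peak) and was not used. The deposited summit offset gave the summit.

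Gene models are those of Ensembl release 115. Sequence was read from the RefSeq genome of Release 6, which dm6 denotes. The strongest summit within 500 bp of any annotated start was taken per gene and list. Replicate values come from each replicate's list. For calls by replicate its strongest peaks were used, equal in number to the IDR list, and summits were matched within 100 bp. No test was run over genes or peaks. Counts and medians stand beside those of all protein-coding genes, or of the others where so named, with 95% Wilson intervals. Promoters and coding sequence identity (global alignment) were read from that genome in place of promoter and protein tables.

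Members and lists were chosen with earlier results of these data known. By rule the text names the 10 highest and 5 lowest members, those without a peak, copy pairs, the extremes of replicate ratio, those over 250 bp away, stalk genes and sta, and the top 4 of the assembly list; other members are named to account for them, and those given as examples of position, neighbours or motifs were chosen after their values were seen. Some members are counted but not reported here by name. The steps were tested on simulated peaks. Software was Biopython 1.88, matplotlib 3.10.9, scipy 1.17.1, pandas 2.3.3, numpy 2.4.6 and Python 3.11.15.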

Additional observations from a re-analysis of the deposited data

How the results depend on the processing

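Of 78 values recomputed under other settings for 16 results, 57 stayed within the limits set and 21 moved. With IDR peaks above that list's median signal value, 43 members had a peak (13.1% of all genes), 36 with a single name and 7 copies, with medians of 628 for signal value, -42 bp for distance and 46.5% for G or C. In lists of 1 replicate the median signal value was 212 to 219.7, on that list's own scale, and the median distance -31 to -30 bp. A window of 1000 bp gave -33 bp, and the 5′ end alone -8.5 bp with 54.1% upstream. Sequence with 25 and 100 bp to either side of the summit gave 45.1% and 41.8% G or C. The initiator at any start was at 61.3% of members. In 100 bases before to 50 after the 5′ end, the TATA box was at 12.9% (all genes 23.9%, so that it changed sides), the BEAF-32 core at 61.3% (34.3%) and GAGA at 8.60% (18.0%). In 250 before to 50 after, members without a peak had 15.8% (DRE) and 52.6% (BEAF-32 core). The cause was not tested. Leaving out either replicate left 74 to 75 members with a peak. No paired analysis was possible because there is 1 group. Depth is unknown, peaks are the authors', and nearby genes can share a summit.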

Other observations

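On the X chromosome all 15 members had an IDR peak, against 23.7% of all 2196 protein-coding genes on X, and the count was 13 of 19 on 2L, 16 of 21 on 2R, 11 of 14 on 3L and 18 of 23 on 3R, against 24.95%, 24.1%, 26.1% and 27.1% of all genes there. The 1 member on chromosome 4, RpS3A, had a peak. In the strongest peaks of replicate 2 alone, 14 of the 15 members on X had a summit, against 23.5% of all genes on X. Members outside the span of pooled summits lay on 2L (2), 2R (1) and 3L (2), with 0 on X. The copies and -like genes without an IDR peak all lay on arms other than X. The part of this placement in the counts by arm was not tested. The letters GGCGCC, picked after the RpS28a sequence was seen, were in the summit windows of RpS28a and RpS21, 2 of 74 members (2.70%), against 1.54% of IDR peaks at starts. A second IDR summit within 500 bp of a start was found at RpL27A, RpL28, RpLP1 and RpS18, among others.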
